A study of Rattus norvegicus with 12 samples.

Results

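The leukocyte integrins and the molecules they meet on other cells were followed in the rat cervix by 9 genes: Itgb2, Itgam, Itgal, Itgax, Itgad and Itga4 for the integrin chains, Icam1 and Vcam1 for their ligands, and Selplg for the selectin ligand of leukocytes. A gene was included where the array files give that name to a probe, which held for 8 of the 9 genes and 9 of the 30367 probes (26612 gene names in all). Itgam had 2 probes and Itgax none. Adult female Sprague-Dawley rats were either nonpregnant in proestrus (NP) or pregnant on day 21 after breeding (D21), typically the day before birth. Cervix cells of every rat were dispersed with collagenase, so no group is intact tissue. In each state, whole cell suspensions of 3 rats were compared with suspensions of 3 other rats from which Mφs had been removed with the ED1 antibody and magnetic beads. The Mφ-depleted cells therefore differ from whole cells both in the cells taken out and in the added handling, which cannot be told apart. Each of the 12 arrays held 1 rat.

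Integrins are receptors made of an alpha and a beta chain. The chain encoded by Itgb2 (CD18, β2) is confined to leukocytes and pairs with Itgal to form LFA-1, with Itgam to form Mac-1 (CR3), with Itgax to form p150,95 and with Itgad to form CD11d/CD18, while Itga4 pairs with other beta chains to form VLA-4 and the mucosal homing receptor α4β7. Icam1 is the ligand of LFA-1 and Mac-1, Vcam1 is the ligand of VLA-4, and Selplg (PSGL-1) lets leukocytes roll on P- and E-selectin before integrins arrest them. Blood leukocytes use these steps to enter tissues, and Mφs and neutrophils carry Itgb2 and Itgam while T cells carry more Itgal.

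The probes of Itgal and Itgam are shown because they sit on the feature that marks these alpha chains, the GFFKR motif just inside the membrane, where the alpha chain clasps the beta chain. In capitals are the codons of GFFKR that were found by translating each 60-base probe. The Itgal probe lies at rn4 chr1:186594579-186597988, a span longer than the probe, so it crosses a splice junction, as does the dimmer Itgam probe at chr1:187385032-187385565. The brighter Itgam probe, at chr1:187385524-187385583, shares 34 bases with the dimmer one, begins inside the motif and ends with the stop codon TAA.
Itgal: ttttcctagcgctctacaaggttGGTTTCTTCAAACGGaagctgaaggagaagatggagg
Itgam, dimmer probe: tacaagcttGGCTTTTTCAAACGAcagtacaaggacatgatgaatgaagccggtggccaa
Itgam, brighter probe: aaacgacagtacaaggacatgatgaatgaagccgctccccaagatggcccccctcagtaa

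RefSeq promoters (GRCr8) were given for 5 of the 9 genes. The 250 bases before the start of Icam1, Vcam1 and Itgam are shown because the first pair differed in direction when Mφs were removed, and because Itgam is a textbook target of PU.1, the myeloid transcription factor. Searched on both strands were GGNNNTTCC, a core of NF-kB sites, and GAGGAA, the core bound by PU.1 and other ETS factors, and the matches are in capitals. Icam1 (chr8:27829595-27829844, + strand) and Vcam1 (chr2:206742784-206743033, - strand) each held 2 matches to the NF-kB core and none to the PU.1 core, and Itgam (chr1:192089342-192089591, + strand) held 2 matches to the PU.1 core and none to the NF-kB core. The promoters of Itgax and Itga4 held neither. Among all 33469 promoters, 15.4% held the NF-kB core and 23.3% the PU.1 core in the same window, so that a match alone is common.
Icam1: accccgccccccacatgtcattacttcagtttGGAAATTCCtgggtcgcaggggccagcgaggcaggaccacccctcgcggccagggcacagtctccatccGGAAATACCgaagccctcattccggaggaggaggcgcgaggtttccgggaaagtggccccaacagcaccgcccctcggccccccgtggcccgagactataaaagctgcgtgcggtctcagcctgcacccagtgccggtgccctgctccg
Vcam1: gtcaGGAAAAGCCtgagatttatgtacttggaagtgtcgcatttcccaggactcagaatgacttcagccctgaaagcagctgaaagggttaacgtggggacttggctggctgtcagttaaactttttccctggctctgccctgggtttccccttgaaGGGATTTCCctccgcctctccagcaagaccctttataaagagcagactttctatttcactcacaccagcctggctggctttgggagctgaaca
Itgam: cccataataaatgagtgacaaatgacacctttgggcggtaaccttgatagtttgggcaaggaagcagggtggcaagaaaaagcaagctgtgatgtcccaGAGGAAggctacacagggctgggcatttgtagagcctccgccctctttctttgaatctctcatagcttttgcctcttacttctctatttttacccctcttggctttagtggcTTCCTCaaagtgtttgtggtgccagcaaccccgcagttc

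Removal of Mφs was first checked on marker genes. Csf1r, the receptor for the Mφ growth factor CSF1, exceeded depleted cells by 6.74 ± 0.41 in whole D21 cells (log2, SE, adjusted p = 6.68e-06) and by 6.68 ± 0.41 in whole NP cells (adjusted p = 1.77e-06). Adgre1, an adhesion receptor of Mφs, was below background after depletion and at least 37.0-fold (D21) and 39.6-fold (NP) brighter in whole cells (adjusted p = 1.25e-05 and 4.29e-06). Of the Mφ markers tested, 10 of 14 were higher in whole D21 cells and 9 of 12 in whole NP cells, with 1 lower in NP. By the same test, 11.9% of all genes tested were higher and 10.6% lower in D21, and 17.0% and 15.8% in NP. Cd68, the transcript of the ED1 antigen, did not pass the test, with a log2 difference of -0.14 in D21 (adjusted p = 0.882) and 0.54 in NP (adjusted p = 0.530). Smooth muscle markers were higher in whole cells too, 7 of 10 in D21 and 10 of 10 in NP, and so were 3 of 10 and 9 of 10 fibroblast markers, while 4 of 10 and 7 of 10 epithelial markers were lower. Immediate-early genes were lower in whole cells, 10 of 11 tested in D21 and 8 of 9 in NP. The suspensions thus differed in more than Mφs, and the part of this in the results below was not tested. With bulk RNA, fewer cells of a type and less RNA per cell cannot be told apart.

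Itgb2, Itgam, Selplg and Vcam1 were lower in Mφ-depleted than in whole cells of both states, Itgal was lower in NP alone by this test, and Icam1 was higher in both states. Levels are log2 intensities after subtraction of each array's log2 75th percentile, and a call is an adjusted p under 0.05 (limma, Benjamini-Hochberg over all genes tested). In D21 rats 4 of the 6 genes that could be tested were higher in whole than in Mφ-depleted cells and 1 was lower, where 22.4% of all 14259 genes tested were called (11.9% higher, 10.6% lower). In NP rats 5 of the 6 were higher and 1 was lower, where 32.8% of 13418 genes were called (17.0% higher, 15.8% lower). In both states Itgb2, Itgam, Itgal and Selplg could be tested only through the whole arrays, which favours a higher reading in whole cells. With genes well above background on every array compared, only Icam1 and Vcam1 remained, 1 lower and 1 higher in each state. The median log2 difference of the 6 genes was 2.30 in D21 and 3.25 in NP, or 2.13 and 2.77 with genes below background set to their bound, against -0.06 and -0.04 over all genes tested. Fewer of them were called between D21 and NP cells than with depletion, and so was a smaller share of all genes tested. Between whole D21 and NP cells 1 of 6 was higher and none lower (5.81% of 14062 genes called, 3.91% higher and 1.90% lower), and between the Mφ-depleted groups 1 of the 2 genes that could be tested was higher (4.63% of 13406 genes called, 3.64% higher and 0.992% lower). None of the 6 changed with depletion differently in D21 and NP rats after adjustment in limma (2.41% of 14570 genes called, 0.439% with the larger and 1.97% with the smaller difference in D21), and none had an unadjusted p under 0.05. Every called difference was one in which the groups did not overlap, which held in the higher and the lower direction for 20.0% and 24.2% of genes between whole cells, 21.2% and 23.1% with depletion in D21, 22.9% and 24.0% in NP, and 9.50% and 7.51% between depleted cells. Itgad and Itga4 were not well above background on all arrays of any group and were not tested.

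**Figure D1:**
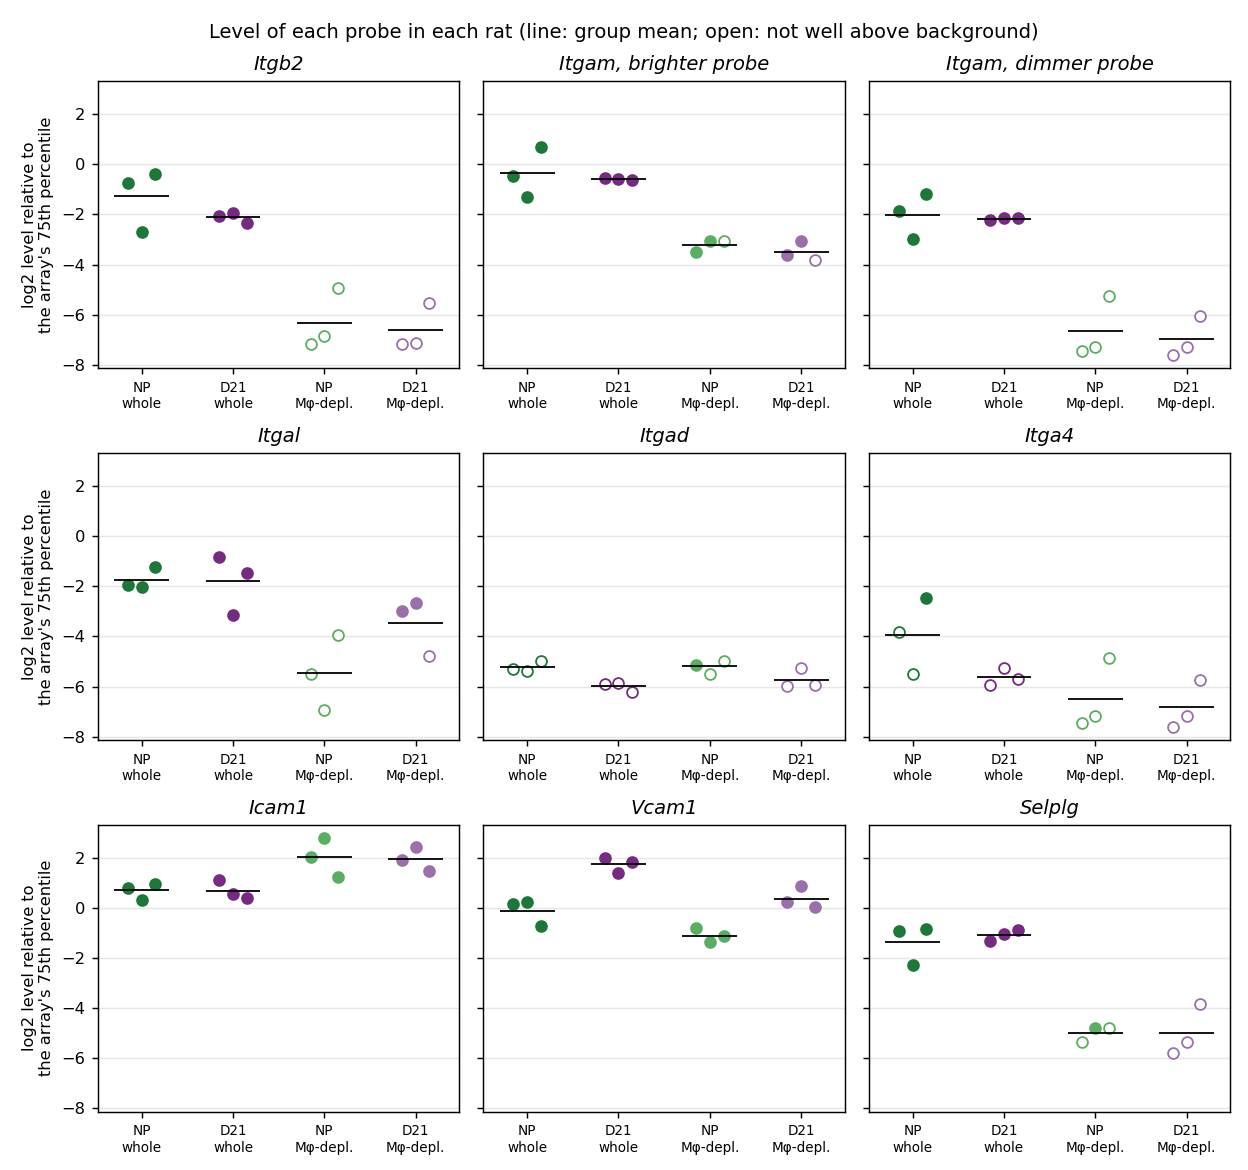
Level of each probe in each rat, as log2 intensity minus the array's log2 75th percentile (y axis), for whole and Mφ-depleted cells of NP and D21 rats (x axis, 3 rats a group). Lines are group means and open points were not well above background, so that their height has no order; all 6 Mφ-depleted arrays of Itgb2 are open.

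Itgb2, the shared β2 chain, was measured in every whole suspension and in no Mφ-depleted one. In whole NP cells its level was -0.76 in rat 8, -2.69 in rat 9 and -0.39 in rat 10, and in whole D21 cells -2.04, -1.96 and -2.32 in rats 5, 6 and 7. The 3 D21 rats lay close together, within the range of the NP rats. In Mφ-depleted cells the probe read -7.17, -6.85 and -4.93 in NP rats 5, 6 and 7 and -7.17, -7.11 and -5.51 in D21 rats 1, 2 and 4, none of them well above background. The D21 means were -2.11 in whole and -6.60 in depleted cells, a difference of at least 6.04-fold (adjusted p = 0.00214). The NP means were -1.28 and -6.31, a difference of at least 8.81-fold (adjusted p = 2.85e-04). Bounds of this kind set each dim array to the lowest signal that the scanner software rated well above background there, or to the probe's own reading if that is higher. That lowest signal is taken over all probes of the array, and a probe below background can read above it, so the bounds are approximate. An adjusted p beside a bound, here and elsewhere, is from limma on the readings themselves, and the bound was not tested. Between whole D21 and NP cells the log2 difference was -0.83 ± 0.70 (SE, n = 3 rats a group, adjusted p = 0.514). Its 95% interval, -2.37 to 0.71, leaves room for a change in either direction.

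Itgam, the alpha chain of Mac-1, kept a low signal after Mφ removal by its brighter probe. That probe gave -0.47, -1.29 and 0.69 in whole NP rats 8, 9 and 10 and -0.53, -0.57 and -0.64 in whole D21 rats 5, 6 and 7. After depletion it gave -3.52, -3.07 and -3.06 in NP rats 5, 6 and 7 and -3.63, -3.08 and -3.83 in D21 rats 1, 2 and 4. The whole and Mφ-depleted groups did not overlap, and 2 of 3 depleted arrays in each state were well above background. The log2 difference of whole over depleted cells was 2.93 ± 0.42 in D21 (SE, n = 3 a group, adjusted p = 0.00124) and 2.86 ± 0.42 in NP (adjusted p = 3.82e-04), which is 7.64- and 7.26-fold. The dimmer probe was on no depleted array well above background, and its whole cells exceeded depleted ones at least 5.75-fold in D21 (adjusted p = 6.87e-04) and at least 5.32-fold in NP (adjusted p = 2.16e-04). Both probes had the same direction, and the dimmer one does not show whether transcript was left after depletion. Whole D21 and NP cells differed by -0.23 ± 0.42 (adjusted p = 0.789).

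Itgal, the alpha chain of LFA-1, was lower in Mφ-depleted cells of NP rats. Whole NP rats 8, 9 and 10 had levels of -1.94, -2.04 and -1.23, and Mφ-depleted NP rats 5, 6 and 7 had -5.51, -6.92 and -3.96, all below background. The gap was at least 6.42-fold (adjusted p = 0.00442). In D21 rats the groups overlapped. Whole rats 5, 6 and 7 had -0.82, -3.13 and -1.47, and Mφ-depleted rats 1 and 2 kept -2.99 and -2.66, well above background and above whole rat 6, while rat 4 had -4.79 and was below background. The difference of 1.67 ± 0.80 did not pass the test (adjusted p = 0.143). The depletion difference in D21 minus that in NP was -2.06 ± 1.13, which did not pass the test either (unadjusted p = 0.0966, adjusted p = 0.352). The depleted groups were not compared for Itgal, since neither had it well above background in all 3 rats. On the slide that held NP rats 5 and 6 and D21 rat 2 the D21 rat was at least 5.66-fold above the NP rats, and on the slide that held NP rat 7 and D21 rat 4 both were below background.

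Since LFA-1 is carried by T and NK cells as well, their markers are given beside Itgal. The mean level of the 11 T and NK cell markers on the array ran from -3.43 to -2.85 in whole NP cells and from -5.15 to -4.11 after depletion, and from -4.40 to -3.90 in whole D21 cells and from -5.22 to -4.94 after depletion. In D21 rats 2 of the 6 tested were higher in whole cells, and in NP rats 2 of 4, against 11.9% and 17.0% of all genes tested. Cd3e, a defining chain of the T cell receptor complex, and Klrd1 were well above background on no array. In each Mφ-depleted group and in whole D21 cells 4 of the 11 were so in no rat, and in whole NP cells 2. The list means therefore rest in part on readings below background. The part of T and NK cells in the Itgal values was not tested.

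The remaining alpha chains were at the limit of detection. Itgad was well above background on 1 of 12 arrays, Mφ-depleted NP rat 5, and its readings lay between -6.21 and -4.97 throughout. Itga4, the alpha chain of VLA-4, was well above background in whole NP rat 10 alone, at -2.48, and gave -3.84 and -5.51 in whole NP rats 8 and 9, between -5.95 and -5.27 in whole D21 rats, and between -7.60 and -4.86 in the depleted groups. Neither shows whether the transcript was absent. For Itgax no probe bears the name, and a probe whose file description uses RGD1561123, a RefSeq synonym of Itgax, was well above background in whole NP rat 10 only, at -3.65, and is not counted among the members.

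Icam1 was the only gene of the 6 tested that was higher after Mφ removal, in both states. In whole cells its level was 0.81, 0.32 and 0.97 in NP rats 8, 9 and 10 and 1.12, 0.55 and 0.38 in D21 rats 5, 6 and 7. In Mφ-depleted cells it was 2.04, 2.80 and 1.24 in NP rats 5, 6 and 7 and 1.92, 2.44 and 1.46 in D21 rats 1, 2 and 4. Every depleted rat lay above every whole rat of either state. Whole cells were lower by a log2 difference of -1.26 ± 0.40 in D21 (n = 3 a group, adjusted p = 0.0453) and -1.33 ± 0.40 in NP (adjusted p = 0.0257), 2.39- and 2.51-fold. Pregnancy left no detectable change, with -0.01 ± 0.40 between whole D21 and NP cells (95% interval -0.90 to 0.87, adjusted p = 0.988) and -0.09 ± 0.40 between depleted ones (-0.97 to 0.79, adjusted p = 0.918).

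The Icam1 calls were close to the threshold. They were lost when the day of scanning was fitted as a block (-0.72, adjusted p = 0.264 in D21; -0.60, adjusted p = 0.264 in NP). In limma the D21 call was also lost with quantile normalization (adjusted p = 0.0709) and with the percentile taken over probes detected on all arrays (0.0705). The NP call held with both. Without a filter on dim probes the D21 call was lost too (0.120). The D21 call was lost without Mφ-depleted rat 1 or 2 or whole rat 5, 6 or 7, and the NP call without Mφ-depleted rat 5 or 6 or whole rat 8 or 9 (adjusted p up to 0.155 and 0.0966). Over all omissions of 1 rat the differences ranged from -1.49 to -1.01 and from -1.72 to -0.94. Lists of other genes are given beside Icam1. Of the NF-kB response genes, inflammatory genes that share a regulator with Icam1, 3 of 11 tested were lower in whole D21 cells and none higher, and 5 of 10 were lower in whole NP cells and 1 higher. Of all genes tested, 10.6% were lower in whole D21 cells and 15.8% in whole NP cells. The list mean ran from -2.24 to -1.48 in whole and from -1.13 to 0.04 in depleted D21 cells, and from -2.17 to -1.91 and -1.44 to 0.23 in NP cells, so that the groups did not overlap. The mean of the immediate-early genes lay between -1.66 and -1.59 in whole and between 1.17 and 1.57 in depleted D21 cells, and between -2.02 and -1.71 and between 0.08 and 0.42 in NP cells. In whole D21 cells 6 of these 14 genes were well above background in no rat, and in whole NP cells 5. For the NF-kB list it was 2 of 13 in each. The whole-cell means of both lists therefore rest in part on readings below background. The mean of the epithelial list lay between 4.17 and 4.63 in whole and between 5.23 and 5.40 in depleted D21 cells, and between 3.12 and 3.40 and between 4.59 and 5.25 in NP cells. The part of these in the Icam1 difference was not tested.

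Vcam1 was the one gene called higher in D21 than in NP rats, among 6 tested between whole cells and 2 between depleted cells. Its level was 0.14, 0.24 and -0.71 in whole NP rats 8, 9 and 10 and 1.99, 1.38 and 1.84 in whole D21 rats 5, 6 and 7. After depletion it was -0.82, -1.37 and -1.13 in NP rats 5, 6 and 7 and 0.22, 0.86 and 0.04 in D21 rats 1, 2 and 4. All were well above background, and in each of the 4 comparisons the groups were apart. Whole D21 cells exceeded whole NP cells by 1.84 ± 0.32 on the log2 scale (n = 3 a group, adjusted p = 0.0110), or 3.59-fold, and depleted D21 cells exceeded depleted NP cells by 1.48 ± 0.32 (adjusted p = 0.0253), or 2.78-fold. Whole cells exceeded depleted ones by 1.36 ± 0.33 in D21 (adjusted p = 0.0162) and by 1.00 ± 0.32 in NP (adjusted p = 0.0350). The change with depletion differed between the states by 0.37 ± 0.46 (adjusted p = 0.698).

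Without whole D21 rat 7 the difference between whole cells was 1.79 and its adjusted p 0.0672, and on the slide shared by the D21 rats and NP rat 10 it was 2.44. The difference between depleted cells was 1.95 and 1.17 within the 2 slides that held both groups, and leaving out any rat but D21 rat 4 ended the call (adjusted p up to 0.0985). The call of whole over depleted cells was lost without D21 Mφ-depleted rat 1 or whole rat 5 or 7 (adjusted p up to 0.0664) and without NP Mφ-depleted rat 6 or 7 or whole rat 8 or 9 (up to 0.121), and with the scan day as a block (1.48, adjusted p = 0.0656 in D21 and 1.25, adjusted p = 0.0517 in NP). Over all omissions of 1 rat the differences ranged from 1.20 to 1.61 and from 0.82 to 1.30. Vcam1 is carried by activated endothelium and by stromal cells. In limma none of the 11 endothelial markers tested was called between whole D21 and NP cells (2 at an unadjusted p under 0.05, median 0.26), nor was any of 10 fibroblast markers (0 at that p, median -0.10), whereas 6 of 10 epithelial markers were higher in D21 and 1 of 10 smooth muscle markers was lower. Between depleted cells 8 of 10 fibroblast markers and 4 of 8 smooth muscle markers were higher in D21. After depletion 5 of 11 and 3 of 10 endothelial markers were lower in D21 and NP, with 1 higher in NP. So were 3 of 10 and 9 of 10 fibroblast and 7 of 10 and 10 of 10 smooth muscle markers, while 4 of 10 and 7 of 10 epithelial markers were higher. Over all genes tested, 3.91% were higher and 1.90% lower in D21 between whole cells, and 3.64% and 0.992% between depleted cells. With depletion 11.9% were lower and 10.6% higher in D21, and 17.0% and 15.8% in NP. The part of endothelial, fibroblast, epithelial and smooth muscle cells in the Vcam1 values was not tested.

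Selplg followed the β2 chain. Whole NP rats 8, 9 and 10 had levels of -0.92, -2.27 and -0.85 and whole D21 rats 5, 6 and 7 -1.33, -1.05 and -0.87, and all 6 depleted rats lay between -5.77 and -3.84, with NP rat 6 alone, at -4.81, well above background. Whole D21 cells exceeded depleted ones at least 12.3-fold (adjusted p = 6.17e-04), with means of -1.08 and -4.99. In NP the log2 difference was 3.64 ± 0.50 (adjusted p = 2.49e-04), where 1 of 3 depleted arrays measured it, so that its size rests in part on readings below background. Whole D21 and NP cells differed by 0.26 ± 0.50 (adjusted p = 0.795).

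**Figure D2:**
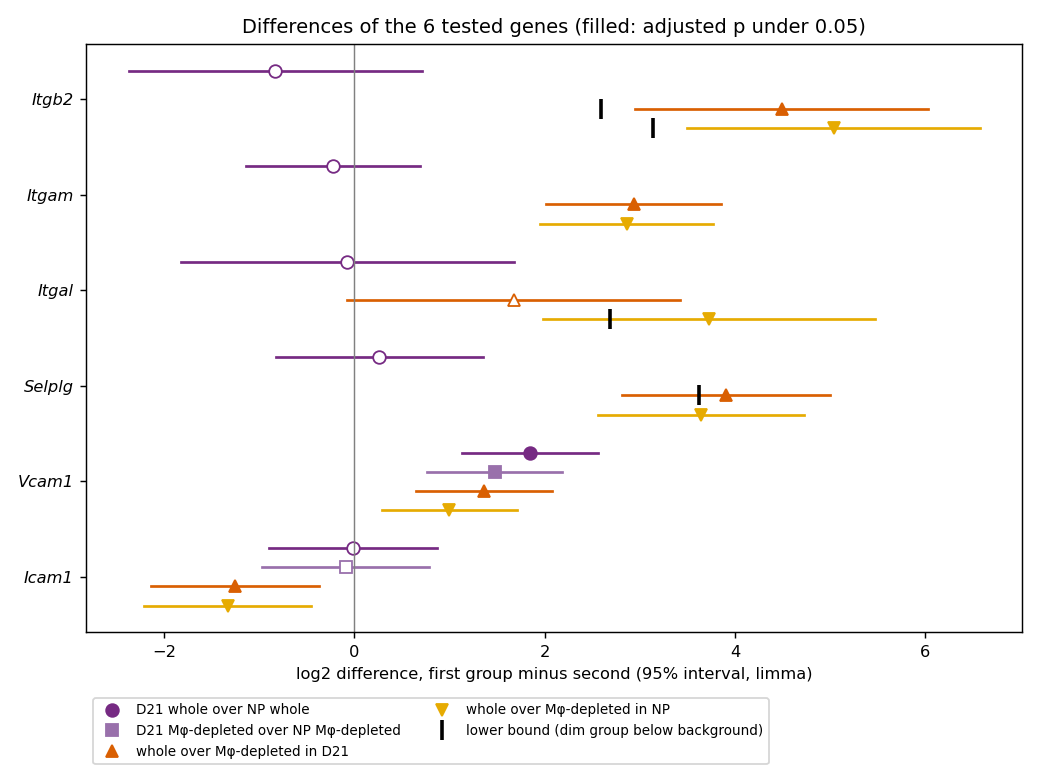
Log2 difference (x axis, points, with 95% intervals from limma) of the 6 tested genes in 4 comparisons of 3 rats against 3. Filled points passed an adjusted p of 0.05, and black bars are approximate lower bounds where the Mφ-depleted group was below background. Between Mφ-depleted cells only Vcam1 and Icam1 could be tested, so only these could be called in all 4 comparisons. Vcam1 was, and Icam1 alone lay below 0 with a call.

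The day of scanning went with depletion in part. All 6 whole arrays and 1 depleted array of each state were scanned on the last day, and the other 4 depleted arrays on the first 2 days. On the last day alone, with 3 whole rats against 1, whole cells were at least 3.06- and 3.15-fold higher for Itgb2 in D21 and NP, at least 8.81- and 5.97-fold for Itgam, at least 3.76- and 2.29-fold for Itgal and at least 6.22- and 3.00-fold for Selplg. Vcam1 differed by 1.70 and 1.02 there and Icam1 by -0.78 and -0.54. With the day as a block, Itgb2, Itgam and Selplg stayed called in both states (adjusted p from 0.00241 to 0.0202) and Itgal in NP (0.0415). With the slide as a block no gene was called in D21, where no slide held both groups, and in NP Itgal and Icam1 were lost (adjusted p = 0.0954 and 0.238). A model-based background correction of the raw signals with an offset of 50 (normexp) also ended all 5 D21 calls (adjusted p from 0.0907 to 0.657) and those of Itgal, Icam1 and Vcam1 in NP (0.0775 to 0.140). With it the log2 differences in D21 were 0.68 for Itgb2, 1.04 for Itgam and 1.26 for Selplg, and in NP 2.19, 1.91 and 1.83. The sizes and bounds given above, which are larger, therefore hold for the scanner software's own background correction.

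**Figure D3:**
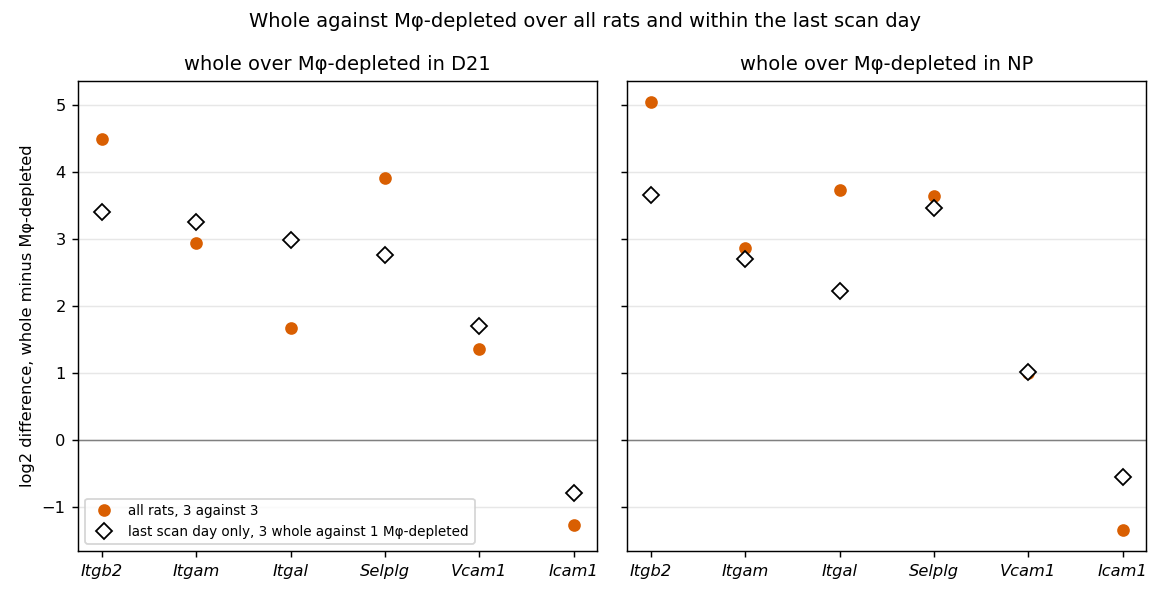
Log2 difference of whole minus Mφ-depleted cells (y axis) of the 6 tested genes (x axis) in D21 and NP rats, over all rats (filled, 3 against 3) and on the last scan day alone (open, 3 against 1). Each gene kept its direction; values of genes below background in the depleted cells are readings, not sizes.

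Of 17 tested genes that turn integrins on or carry their signal, 9 were higher and 1 lower in whole D21 cells (median 1.40), and 10 were higher and 3 lower in whole NP cells (median 2.13). Here and for the lists below, the shares over all genes tested were 11.9% higher and 10.6% lower in D21, and 17.0% and 15.8% in NP. With pregnancy they were 3.91% higher and 1.90% lower between whole cells, and 3.64% and 0.992% between depleted cells. Among the largest differences were those of Tyrobp and Fcer1g, adaptors that carry activation motifs, with 4.55 ± 0.63 and 4.39 ± 0.40 in D21 and 5.59 ± 0.63 and 5.13 ± 0.39 in NP (adjusted p from 5.77e-06 to 0.00106). Between the depleted groups 3 of 14 were higher in D21, Rac2, a GTPase of blood cells, by 4.01 ± 0.64, Fgr, a Src family kinase, by 2.85 ± 0.52, and Apbb1ip, the RIAM adaptor of talin, by 2.33 ± 0.43 (adjusted p = 0.00461, 0.00973 and 0.0108). The means of Rac2 were 0.98 in whole and 1.31 in depleted D21 cells, and 0.35 and -2.70 in NP. Those of Fgr were 0.15 and -0.74 in D21 and -0.06 and -3.59 in NP, and those of Apbb1ip -0.31 and -1.77 in D21 and -0.07 and -4.10 in NP. Between whole cells Plcg2 alone of 17 was higher in D21, by 1.75 ± 0.36 (adjusted p = 0.0204).

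Other integrin subunits moved in both directions. In D21 4 of 15 tested were higher in whole cells and 2 lower (median 0.67), and in NP 7 of 14 were higher and 3 lower (median 0.98). Itgb7, the partner of Itga4 in lymphocytes, was higher by 2.67 ± 0.81 and 2.94 ± 0.81 (adjusted p = 0.0377 and 0.0164). Itgb3, the β3 chain of platelets, endothelium and Mφs, was higher by 2.64 ± 0.60 in D21 (adjusted p = 0.0136) and at least 8.27-fold in NP (adjusted p = 3.01e-04), and Itga5, a fibronectin receptor chain, by 1.81 ± 0.47 in D21 (adjusted p = 0.0220). Itgb4, which anchors epithelium to the basement membrane, was lower in whole NP cells by a log2 difference of -2.96 ± 0.33 (adjusted p = 7.01e-05). With pregnancy, Itga3 was higher in whole D21 cells by 2.21 ± 0.51 (1 of 15, adjusted p = 0.0328), and Itga8, a chain of smooth muscle and stroma, in depleted D21 cells by 1.51 ± 0.31 (1 of 12, adjusted p = 0.0185).

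Among the other integrin ligands, 3 of 8 tested were higher in whole D21 cells and none lower, and 4 of 9 were higher and 1 lower in whole NP cells. Jam3, a junction protein that binds Mac-1, was higher by 2.64 ± 0.44 and 3.07 ± 0.44 (adjusted p = 0.00291 and 3.20e-04), Fn1, fibronectin, by 1.66 ± 0.49 and 3.31 ± 0.49 (adjusted p = 0.0355 and 4.38e-04), and Icam2, an endothelial ligand of LFA-1, by 1.48 ± 0.23 in D21 (adjusted p = 0.00187). Icam5 was at least 4.47-fold higher in whole NP cells (adjusted p = 0.00164). These moved opposite to Icam1. In NP alone the F11r means went the way of Icam1, at 1.46 in whole and 2.60 in depleted cells. In D21 they were close, at 2.85 and 2.87. F11r, a junction ligand of LFA-1, was higher in whole D21 than NP cells by 1.39 ± 0.31 (1 of 8, adjusted p = 0.0265), and Fn1 in depleted D21 cells by 2.13 ± 0.49 (1 of 8, adjusted p = 0.0324).

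Of the selectins and their ligands, 3 of 13 tested were higher and 3 lower in whole D21 cells, and 4 higher and 3 lower in whole NP cells. The shares over all genes tested were 11.9% and 10.6% in D21, and 17.0% and 15.8% in NP. Spn (CD43), a sialomucin of leukocytes, was higher by 2.37 ± 0.47 in D21 (adjusted p = 0.00718), and Cd34, a sialomucin of endothelium and stroma, by 1.85 ± 0.56 in D21 (adjusted p = 0.0371) and at least 9.29-fold in NP (adjusted p = 8.94e-05). Selp, P-selectin, was lower in whole D21 cells by a log2 difference of -1.83 ± 0.42 (adjusted p = 0.0134), and Sele, E-selectin, was below background in whole NP cells and at least 4.81-fold higher after depletion (adjusted p = 5.41e-05). Tpst1, which adds the tyrosine sulfate that P-selectin needs on Selplg, was higher in whole NP cells by 3.85 ± 0.35 (adjusted p = 1.64e-05). Between depleted cells 3 of 12 were higher in D21, namely Cd34, at least 1.78-fold, Tpst1 by 2.16 ± 0.35 and Fut4, a fucosyltransferase that helps make selectin ligands, by 1.20 ± 0.30 (adjusted p = 0.0339, 0.00503 and 0.0462), and between whole cells none of 12 passed the test in limma (1 at an unadjusted p under 0.05).

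**Figure D4:**
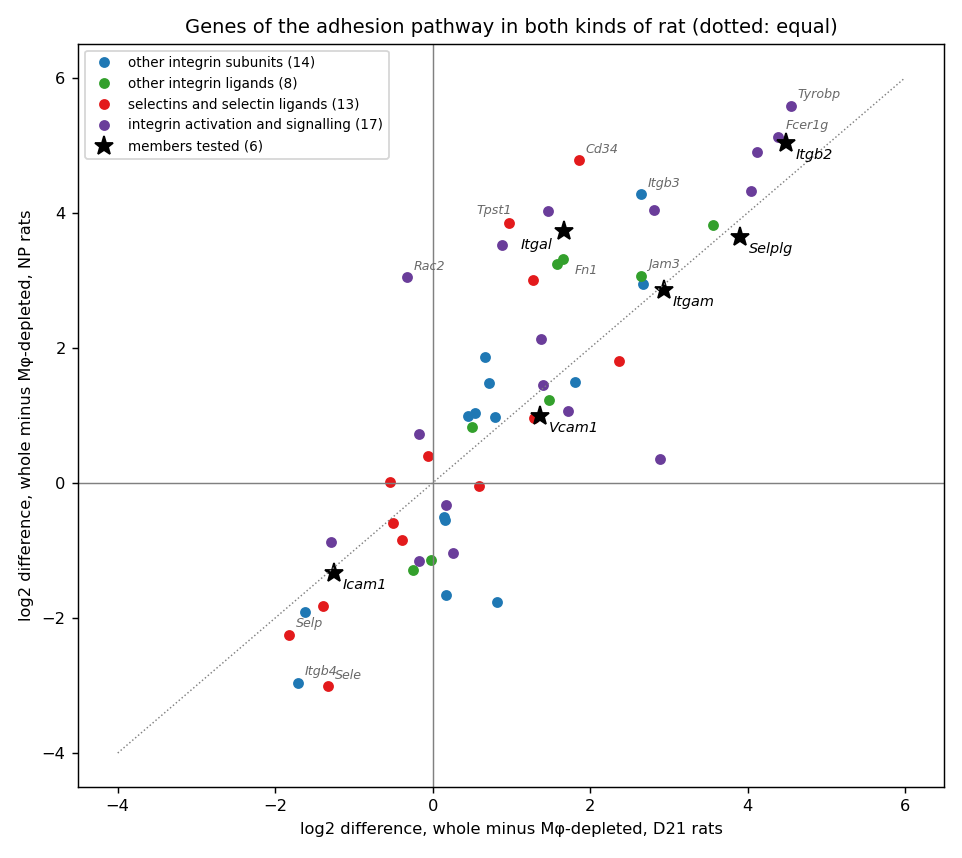
Log2 difference of whole minus Mφ-depleted cells in D21 rats (x axis) and NP rats (y axis) for the 6 tested members (stars) and for genes of 4 pathway lists (points, numbers of genes in the legend), with equal values on the dotted line. Icam1, Selp, Sele and Itgb4 lie below 0 in both states and the leukocyte genes Tyrobp, Fcer1g and Itgb2 far above it; readings of genes below background are included.

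Neutrophils also carry Mac-1, and mast cells and dendritic cells carry leukocyte integrins. Of the neutrophil markers 1 of 4 tested was higher in whole D21 cells and 2 of 4 in whole NP cells, and their list mean ran from -4.20 to -4.01 in whole and from -5.75 to -4.44 in depleted D21 cells, and from -3.76 to -3.03 and -5.53 to -3.74 in NP cells. Of the 9 on the array, 6 were well above background in no rat of each depleted group. In whole D21 cells 5 of the 9 were so in no rat, and in whole NP cells 3. These means therefore rest in large part on readings below background. Mast cell markers were higher in whole cells for 4 of 6 and 3 of 5 tested, with 1 lower in NP, and dendritic cell markers for 1 of 2 in each state. Neither of 2 B cell markers tested in D21 nor the 1 tested in NP was called in limma (0 at an unadjusted p under 0.05). Ngp, Camp and Mmp8 of neutrophils and Ms4a1 of B cells were well above background on no array. The part of these cells in the Itgb2, Itgam and Selplg values was not tested.

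As a description, the genes with the pattern most like that of a member over the 12 arrays were listed among 14491 genes. Those most like Itgb2 were Samsn1 (Pearson r = 0.998), Cd300a (0.992) and Gpr183 (0.992), all genes of leukocytes, and 2 probes without a gene symbol. Those most like Icam1 were Rab3gap2 (0.957), Abcb8 (0.951), Anapc2 (0.949) and Fastk (0.948), besides 1 without a symbol. Those most like Vcam1 were Creg1 (0.936), Plscr2 (0.927), Pla1a (0.921) and Alg11 (0.916), besides 1 without a symbol. The arrays share slides, scan days and the group structure, so these values carry no test. The Itgb2 readings of every Mφ-depleted array were below background, so its correlations rest in part on values that were not measured.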

How the data were processed

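The authors deposited the scanner intensity of every spot from 1-colour Agilent arrays (Feature Extraction 9.5.3.1, positions in rn4), background-subtracted and with dim signals replaced by a positive surrogate, and the software's rating of each spot as well above background. They also deposited a table of ratio values, each intensity over the 75th percentile of its array, used here as an alternative. Outlier and control spots were left out, spots of a probe averaged, and log2 of the array's 75th percentile subtracted. RefSeq named 17328 of 30367 probes, and the files' names were kept for the rest. The brightest probe stood for a gene. A gene was tested where all 3 arrays of at least 1 group compared were well above background, with limma 3.58.1 in R 4.3.3 (lmFit, eBayes, a mean for each group, all 12 arrays). The script was checked on simulated data. On an array, 44.9% to 61.8% of probes passed as well above background, and the number of arrays limits the precision: an exact permutation test of 3 against 3 cannot go below p = 0.1. There were 4 slides and 3 scan days. No member was saturated.

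All 9 members are named, and in each pathway list and comparison up to 3 called genes with the largest difference among those whose groups did not overlap. For 3 members the 5 most similar genes are given. Marker genes outside this rule (Csf1r, Adgre1, Cd68 and those listed as undetected) were named after their values were seen. Genes withheld from the text are not reported here. The members and lists were chosen with earlier results of these data known. Alternatives were the paper's threshold (unadjusted p under 0.01 with 2-fold), the methods' t-test (Welch), limma on the compared arrays, normexp, quantile normalization, another percentile, other filters, the mean of probes, slide and scan day as blocks, the authors' values and leaving out each rat. A fit of the last scan day alone was added after seeing the data.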

Additional observations from a re-analysis of the deposited data

Results flagged for a closer look

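Tpst1, the tyrosylprotein sulfotransferase that acts on Selplg, changed with Mφ depletion differently in the 2 states. Whole cells exceeded depleted ones by a log2 difference of 0.97 in D21 (adjusted p = 0.0661) and 3.85 in NP (adjusted p = 1.64e-05), and the interaction in limma was -2.88 ± 0.50 (adjusted p = 0.0151). In the same interaction 7 of 10 fibroblast markers (median -3.002) and 5 of 10 smooth muscle markers (median -2.25) were lower, and their part in the Tpst1 value was not tested.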

How the results depend on the processing

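No paired analysis was possible because the groups compared share no replicate numbers: each array is another rat. The members called numbered 1 between whole D21 and NP cells, 5 and 6 with depletion in D21 and NP, 1 between depleted cells and 0 for the interaction. The methods' t-test gave 0, 1, 2 and 0 for the first 4 at the paper's threshold, and 0 in each after Benjamini-Hochberg adjustment. Normexp gave 0 in D21, 3 in NP and 0 between depleted cells. Without a filter on dim probes there were 0 between whole cells, 3 in D21 and 0 between depleted cells. With genes above background on every array compared there were 2 in D21 and 2 in NP, Icam1 and Vcam1 in each. The slide as a block gave 0 in D21, and the scan day as a block gave 3 in D21 and 0 between depleted cells. Limma on the compared arrays gave 0 between depleted cells and 4 in NP, where Icam1 and Vcam1 were lost (adjusted p = 0.0565 and 0.0600), as they also were in NP without a filter (4 called, adjusted p = 0.0745 and 0.106). The last scan day alone gave 2 in D21, 3 in NP and 0 between depleted cells. Without 1 rat at a time the counts ranged from 0 to 1, 3 to 5, 4 to 6, 0 to 2 and 0 to 0. The count of 2 includes Itgal, which passed the filter between depleted cells only once D21 rat 4 was left out, so that call is not used. The cause was not tested, except that the last day holds fewer arrays.

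No value that was called changed direction. Of the others, Selplg between whole cells was -0.23 with the slide as a block, and Icam1 between depleted cells 0.105 with the slide or scan day as a block and 0.22 on the last day. The interaction of Itgam was -0.87 with normexp, -0.036 with quantile normalization, -1.07 with the slide and -0.017 with the scan day as a block, that of Selplg -0.57, -0.17, -0.49 with the slide and -0.70 on the last day, that of Icam1 -0.39, -0.12 and -0.24 with slide, scan day and last day, and that of Itgal 0.76 on the last day. Without 1 rat at a time, differences between whole cells ranged from -0.69 to 0.30 for Itgam, -0.57 to 0.59 for Itgal, -0.23 to 0.14 for Icam1 and -0.20 to 0.51 for Selplg, that of Icam1 between depleted cells from -0.48 to 0.30, and the interaction from -0.39 to 0.60 for Itgam, -0.31 to 0.47 for Icam1 and -0.20 to 0.84 for Selplg. In all, 406 of 526 differences kept direction and call, 85 lost the call and 35 changed sign.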
